A study of Mus musculus with 4 samples.

Results

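Spots rich in RNA of neutrophil marker genes were examined in the day 1 section of injured tibial muscle. They were chosen by a measured score, the summed UMIs (unique molecular identifiers, counted RNA molecules) of S100a8, S100a9, Retnlg, Csf3r and Cxcr2 over all UMIs of the spot. The marker-rich spots were those at or above the 90th percentile of that score among spots with 2000 or more UMIs. They numbered 216 of 2154 such spots, of 2667 spots in the day 1 section and of 10835 spots in the series. The remaining 1938 spots are called the other spots.

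All mice carried the Nse-Bmp4 transgene, in which a neuron-specific enolase promoter drives the bone morphogenetic protein Bmp4, on a C57BL/6 background, and were 6 to 8 weeks old. Muscles of this model form bone after injury with cardiotoxin, a snake venom toxin that destroys myofibres. Sections were made from uninjured muscle (day 0) and from muscle at days 1, 3 and 7 after injury, with 1 section per day. Per the labels, 3 muscles were mixed for each group, which the paper's methods state of its single-cell assay. How they map onto 1 section is not clear, and 1 section per day leaves no spread between animals to measure. A capture spot covers several cells, so a spot is a small piece of tissue and not a cell type, and more cells of a type cannot be told apart from more RNA per cell.

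Neutrophils are short-lived granulocytes that leave the blood within hours of tissue damage and arrive before most monocytes. CXC chemokines that carry a glutamate-leucine-arginine (ELR) motif draw them in through the receptor Cxcr2. Once there they release granule proteases and reactive oxygen species and are then cleared by macrophages.

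The day 1 section held 16777832 UMIs, and the day 0, 3 and 7 sections held between 41832640 and 56113066. Depth differed within the day 1 section as well, with a median of 4946.5 UMIs in the marker-rich spots and 7710.5 in the other spots. The sections shared from 1823 to 2075 spot barcodes with day 1, which name positions on the array and not cells. Levels are given as CPM, counts per 1000000 of the summed UMIs of a group of spots. Intervals in parentheses are 95% intervals that cover counting error only. No test between spots was made, because spots of 1 section are not replicates.

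The score rested on few molecules in most spots. The marker-rich spots held 1181 UMIs of the 5 genes, 44.7% of those in the section, in 7.46% of its UMIs. In a marker-rich spot the number of marker UMIs had a median of 4 and ranged from 1 to 36, and 9 spots were chosen on a single UMI. The 10 spots with most marker UMIs held 18.5% of those in all 216. Of the other spots, 1141 (58.9%) had no marker UMI. The bound was 471.8 CPM. The spots just inside it had 1 marker UMI in 2119 UMIs, 2 in 4232 and 3 in 6346, and the spots just outside had 1 in 2121, 4 in 8531 and 1 in 2141. The highest score was 36 marker UMIs in 2524, or 14263 CPM.

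The pair S100a8 and S100a9, which form the calcium-binding protein calprotectin, made up most of the score. The marker-rich spots held 467 UMIs of S100a8 and 447 of S100a9, against 468 and 466 in all other spots together. Csf3r, the receptor for granulocyte colony-stimulating factor, had 228 UMIs in the marker-rich spots, Cxcr2 had 34, and Retnlg, a resistin-like secreted protein, had 5. These numbers follow from the choice and are a description.

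The receptors and the calprotectin genes were also read apart. S100a8 or S100a9 stood together with Csf3r, Cxcr2 or Retnlg in 142 (65.7%) of the marker-rich spots and in 125 (6.45%) of the others, a contrast that follows from the choice. When 216 spots were instead chosen on Csf3r, Cxcr2 and Retnlg alone, S100a8, which that score did not use, was 4.02 times as high in them as in the rest (3.44 to 4.68). S100a9 was 4.22 times as high (3.61 to 4.92). In the reverse choice, on S100a8 and S100a9 alone, Csf3r was 4.73 times as high (3.87 to 5.74) and Cxcr2 4.47 times (2.60 to 7.43). Spots chosen on either set of markers thus had higher levels of the other set, although both were read from the same spots at the same depth.

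A second description used each UMI only once. The UMIs of every spot were split at random, spots were chosen on one part, and the markers were counted in the other. Of the 216 spots chosen in this way, 161 were also chosen on all UMIs. In the unused UMIs the 5 markers were 6.82 times as high in the chosen spots as in the rest (6.05 to 7.69). On all UMIs, where choice and count used the same molecules, the ratio was 11.3. These ratios and those of the separate marker sets come from the genes of the score and give the choice no separate support.

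**Figure D1:**
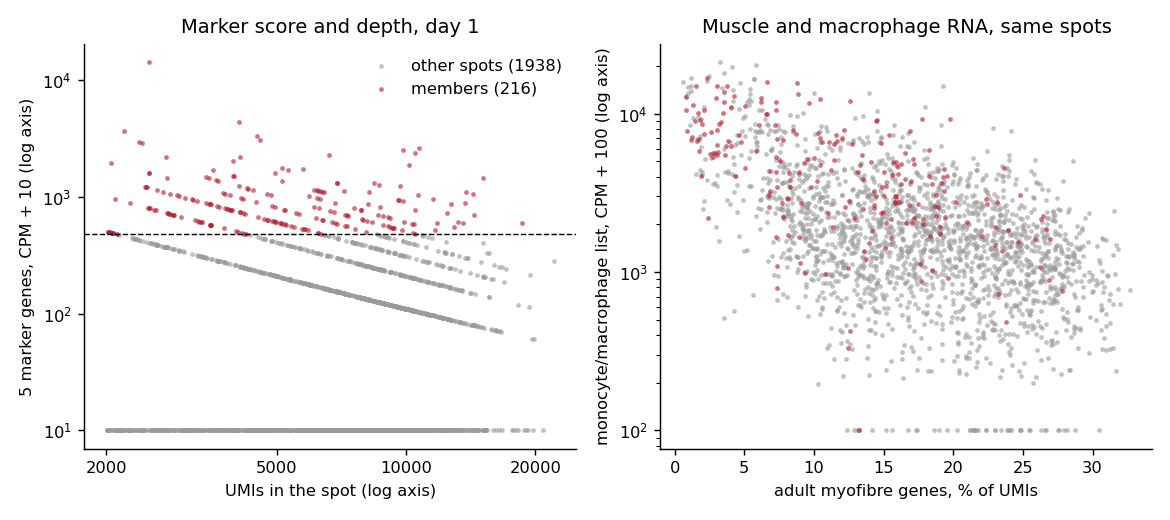
Each point is a day 1 spot of 2000 or more UMIs, red for the 216 marker-rich spots (members) and grey for the 1938 others. The left panel plots the CPM of the 5 marker genes plus 10 against UMIs per spot, both on log axes, with the bound of 471.8 CPM dashed, and its slanted lines are spots with the same small number of marker UMIs. The right panel plots the monocyte/macrophage list, in CPM plus 100 on a log axis, against the percentage of UMIs from adult myofibre genes, and red points are most frequent where muscle RNA was low.

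Several genes by which neutrophils or their granules are often identified were close to absent. Ly6g, the surface protein by which mouse neutrophils are usually identified, had 0 UMIs in the marker-rich spots and 1 in the other spots. The secondary granule genes Camp, Ngp and Ltf had 1, 0 and 0 UMIs in the marker-rich spots, and 0, 0 and 2 in the others. Of the primary granule genes, Mpo, Elane, Ctsg and Ms4a3 had 0 UMIs in the marker-rich spots and Prtn3 had 6. A count of 0 over this group allows up to 2.40 CPM (3 UMIs). The spots are called by their marker genes and not as neutrophils, and whether neutrophils were the source of the marker RNA was not tested.

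Of 8806 genes with 100 or more UMIs over both groups, the 5 markers left out, 1091 (12.4%) were at least 2-fold higher in the marker-rich spots and 164 (1.86%) at least 2-fold lower. The median gene was itself 1.26 times as high in the marker-rich spots, 0.33 on the log2 scale, and 6531 genes lay above a ratio of 1. Muscle RNA took a smaller share of these spots, and its part in that shift was not tested. Adult myofibre genes made up a median of 12.1% of the UMIs of a marker-rich spot (0.79% to 27.8%) and 18.0% of those of another spot (0.59% to 32.7%). Mitochondrial transcripts had medians of 12.0% and 17.0%. Every ratio below is to be read against 1.26 and these shares of 12.4% and 1.86%.

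The genes that stood highest, among those with 50 CPM or more in the marker-rich spots, were chemokines for neutrophils, interferon-induced genes, fat cell genes and myeloid receptors. Cxcl5, an ELR chemokine, led with 93.5 CPM (117 UMIs) in the marker-rich spots and 15.4 CPM (231 UMIs) in the others, a ratio of 6.08 (4.82 to 7.63). Ppbp, the precursor of another ELR chemokine that platelets store, came next among genes of 50 CPM or more in these spots, at 78.3 and 14.2 CPM, a ratio of 5.52 (4.30 to 7.05). Slfn4, a Schlafen gene of activated myeloid cells, was at 159.1 and 31.0 CPM (5.12, 4.32 to 6.06), and its relative Slfn1 at 69.5 and 16.9 CPM (4.11, 3.18 to 5.26). Mmp9, the gelatinase of tertiary granules that macrophages also make, was at 63.1 and 13.3 CPM (4.74, 3.61 to 6.18).

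Genes of fat cells stood among the same 15. Adipoq, which encodes the hormone adiponectin, had a ratio of 4.80 (3.72 to 6.16). Cfd, the complement protease adipsin, reached 663.4 CPM in the marker-rich spots and 142.8 CPM in the others (4.65, 4.28 to 5.04), and Scd1, a fatty acid desaturase, 358.1 and 86.3 CPM (4.15, 3.72 to 4.63). These ratios were lower with all spots thinned to 2000 UMIs and chosen anew, which took 515 spots in place of 216. Adipoq was then at 1.63, Cfd at 1.42 and Scd1 at 1.64. With the 216 spots kept, a Cfd UMI at that depth was in 25.9% of them and 11.5% of the others. Adipoq was in 8.33% and 3.10%. The parts of depth and of the wider choice were not tested. The other named genes were Thbs1, a matrix glycoprotein (4.60), Clec10a, a lectin of macrophages and dendritic cells (4.49), Oasl2, an interferon-induced gene (4.45), Slco2a1, a prostaglandin transporter (4.11), C5ar1, the receptor for complement fragment C5a (4.04), Nfam1, an activating receptor (4.02), and Fcgr4, an Fc receptor (3.98). The ratios of these 7 lay between 3.98 and 4.60 and their lower limits were all above 2. After thinning Slco2a1 was at 1.47, and without the fat-rich spots described below Slco2a1 was at 1.71 and Clec10a at 1.79.

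Low in the marker-rich spots were genes of muscle contraction. Tcap, the titin cap of the sarcomere, was at 757.7 and 1996 CPM, a ratio of 0.380 (0.356 to 0.405). The slow-fibre myosin light chains Myl2 and Myl3 had ratios of 0.351 and 0.383, and the oxidative fast myosin Myh2 0.381. Chosen on a random part of the UMIs the values were 0.601, 0.729 and 0.520, thinned to 2000 UMIs 0.583, 0.626 and 0.703, and within groups of myofibre share 0.190, 0.233 and 0.244. The remaining named genes, the fat oxidation regulator Acacb, the mTORC1 inhibitor Ddit4l, the kinase Mylk4, the deubiquitinase Usp2 and the methyltransferase Mettl21c, ranged from 0.376 to 0.390.

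**Figure D2:**
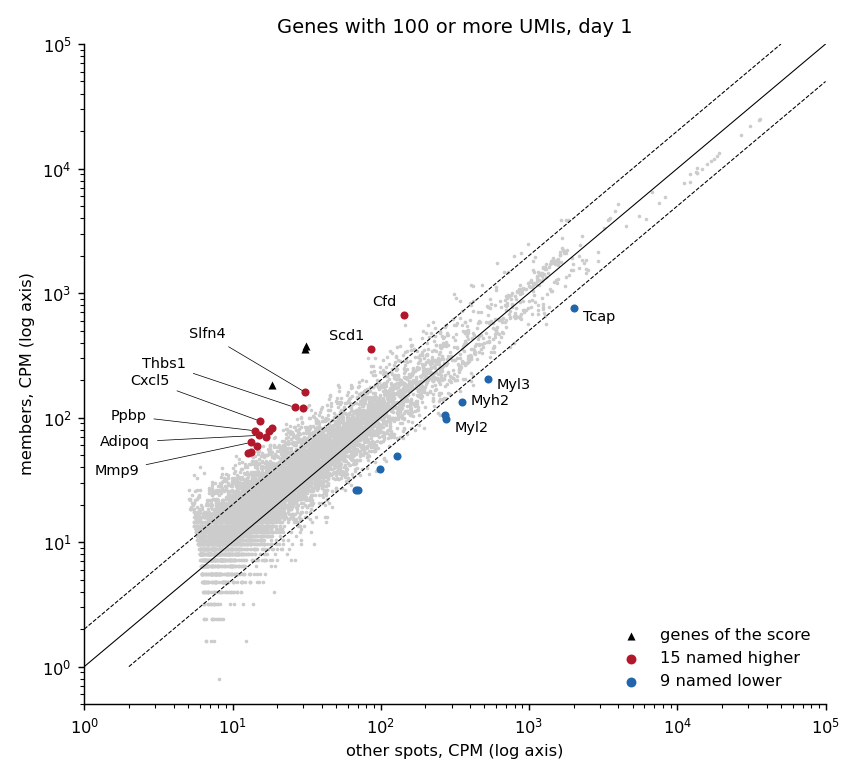
Each point is a gene with 100 or more UMIs, with its CPM in the other spots on the x axis and in the marker-rich spots (members) on the y axis, both on log axes. Black triangles are S100a8, S100a9 and Csf3r, which chose the spots, red points the 15 genes named as highest and blue points 9 of the 10 lowest. The solid line marks equal levels and the dashed lines a 2-fold difference, and most points lie slightly above the solid line, with a median ratio of 1.26.

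The ELR CXC chemokines, ligands of Cxcr2, were the list with the highest ratio among the 49 lists, the markers themselves aside. Their summed level was 212.6 CPM in the marker-rich spots and 37.8 CPM in the others, a ratio of 5.63 (4.85 to 6.52), and all 3 members with 100 or more UMIs were at least 2-fold higher. Besides Cxcl5 and Ppbp these included Cxcl1, at 18.4 and 5.26 CPM (3.49, 2.10 to 5.62). Cxcl3, with fewer UMIs (23 and 29), was at 18.4 and 1.93 CPM (9.52, 5.26 to 17.0), and Cxcl2 had 5 and 15 UMIs. Cxcl15, a lung chemokine, had none in either group.

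These chemokine genes lie in a cluster on mouse chromosome 5 (GRCm38, the assembly of mm10), with Cxcl5 at chr5:90759298-90761625, Ppbp at chr5:90768518-90770063, Pf4 at chr5:90772435-90773383, Cxcl3 at chr5:90786101-90788093, Cxcl1 at chr5:90891245-90893121 and Cxcl2 at chr5:90903899-90905938. Their promoters are shown because they belong to the list with the highest ratio. Each window runs from 250 bases before to 50 bases after the transcript start, from RefSeq (GRCm38.p6), written 5′ to 3′ on the gene's strand. Capitals mark the letters GGG, any 3 bases and TTCC, a form of the binding motif of NF-kB, the transcription factor of inflammatory signals, read on both strands and with overlapping matches joined. Cxcl5 was not among the promoters used, and the window of Cxcl15, which had no UMI in either group, is not printed.

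Ppbp, chr5:90768268-90768567, plus strand: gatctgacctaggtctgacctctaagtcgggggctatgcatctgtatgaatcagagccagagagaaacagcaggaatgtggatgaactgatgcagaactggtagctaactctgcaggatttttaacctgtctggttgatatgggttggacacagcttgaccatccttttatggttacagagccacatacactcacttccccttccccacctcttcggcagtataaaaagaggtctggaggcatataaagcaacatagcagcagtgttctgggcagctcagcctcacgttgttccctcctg
Cxcl3, chr5:90785851-90786150, plus strand: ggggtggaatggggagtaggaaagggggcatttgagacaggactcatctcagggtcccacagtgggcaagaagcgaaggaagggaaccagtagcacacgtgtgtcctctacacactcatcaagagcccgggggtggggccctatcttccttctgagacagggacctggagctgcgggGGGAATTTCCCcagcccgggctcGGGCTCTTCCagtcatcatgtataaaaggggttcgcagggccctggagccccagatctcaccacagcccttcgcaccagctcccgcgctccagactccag
Cxcl1, chr5:90890995-90891294, plus strand: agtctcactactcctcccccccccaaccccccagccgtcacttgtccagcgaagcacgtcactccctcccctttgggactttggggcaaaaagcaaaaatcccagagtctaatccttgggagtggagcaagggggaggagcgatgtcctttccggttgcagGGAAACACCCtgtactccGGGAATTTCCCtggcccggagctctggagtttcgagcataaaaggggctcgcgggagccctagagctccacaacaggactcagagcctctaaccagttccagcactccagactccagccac
Cxcl2, chr5:90903649-90903948, plus strand: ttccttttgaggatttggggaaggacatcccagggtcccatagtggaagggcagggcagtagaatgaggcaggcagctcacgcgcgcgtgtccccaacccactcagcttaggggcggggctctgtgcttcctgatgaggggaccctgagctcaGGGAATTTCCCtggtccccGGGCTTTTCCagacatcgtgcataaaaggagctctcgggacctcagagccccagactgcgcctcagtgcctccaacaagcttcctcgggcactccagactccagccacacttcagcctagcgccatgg

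Cxcl3, Cxcl1 and Cxcl2 each had 3 matches, of which 2 overlapped on opposite strands and began from 70 to 97 bases before the start. Ppbp had none in this window, and neither had Cxcl15, so 3 of the 5 list genes with a window held the motif. Among all 32851 promoter windows of the same length, 5.56% held the motif. Over whole sections Ppbp was at 23.4 CPM at day 1 and 0.695 CPM at day 3, and Cxcl3 at 4.11 and 0.392 CPM. Cxcl5 was at 22.5 and 26.0 CPM, Cxcl1 at 6.62 and 7.52 CPM and Cxcl2 at 1.31 and 1.12 CPM. At day 0, Cxcl5 and Ppbp were at 0.0228 and 0.0456 CPM. A match of letters describes the window only.

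The presence of these chemokines was also read at equal depth, with each spot thinned to 2000 UMIs in 20 draws. A Cxcl5 UMI was present in 14.2% of the marker-rich spots (9.96% to 19.8%) and 3.26% of the others (2.51% to 4.14%), against 25.9% and 8.31% before thinning. Ppbp was present in 12.9% and 2.94%, Mmp9 in 11.8% and 2.93%, and Il1b in 9.17% and 2.25%. Most marker-rich spots thus had no Cxcl5 molecule at that depth. When the spots were also chosen anew after thinning, which took 515 spots because many scores were tied, the ratio of the ELR list was 3.25, that of Cxcl5 3.18 and that of Ppbp 3.51.

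Receptors and adhesion molecules by which neutrophils sense and enter tissue were high as a list, although many are also expressed by monocytes. The list summed to 903.2 CPM in the marker-rich spots and 271.7 CPM in the others, a ratio of 3.32, and all 14 of its measured members with enough UMIs were at least 2-fold higher. Itgb2, the integrin chain of leukocyte adhesion, was at 115.1 and 44.1 CPM (2.61). Ccr1, a chemokine receptor, was at 96.7 and 27.0 CPM (3.58, 2.90 to 4.39). Cd300lf, an inhibitory receptor of myeloid cells, had the highest ratio of the list among genes with enough UMIs, 5.63 (3.86 to 8.10).

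Genes of the oxidative burst, by which phagocytes make superoxide, were high together. All 6 NADPH oxidase genes were at least 2-fold higher, and the list had a ratio of 2.87. Cyba, the small membrane subunit, was at 310.9 and 126.4 CPM (2.46, 2.20 to 2.74), and Ncf1, the cytosolic organizer subunit, at 125.5 and 32.9 CPM (3.81, 3.17 to 4.57). The catalytic subunit Cybb was at 56.0 and 17.7 CPM (3.16, 2.39 to 4.12).

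Granule genes were measured mainly through those that macrophages also express, such as Lyz2 and Chil3. Of the secondary and tertiary granule list, 7 of 8 genes with enough UMIs were at least 2-fold higher (list ratio 2.39). Lyz2, lysozyme, supplied 1846 of its UMIs in the marker-rich spots (2.16, 2.06 to 2.27). Hp, haptoglobin, was at 306.9 and 110.5 CPM (2.78), and Chil3, a chitinase-like protein, at 175.8 and 52.2 CPM (3.37). Lcn2, lipocalin, which withholds iron from bacteria, had 21 and 154 UMIs, a ratio of 1.64 (0.985 to 2.59).

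Signals that attract monocytes were abundant in the same spots. The CC chemokine list was at 3747 CPM in the marker-rich spots and 1313 CPM in the others (2.85), and 6 of 8 genes with enough UMIs were at least 2-fold higher. Ccl6 and Ccl9, both made by myeloid cells, were at 1736 and 989.5 CPM in the marker-rich spots and 603.3 and 313.2 CPM in the others. Ccl2 and Ccl7, ligands of the monocyte receptor Ccr2, were at 330.9 and 370.9 CPM against 119.6 and 129.5 CPM, and Ccr2 itself at 259.0 and 85.7 CPM (3.02, 2.67 to 3.42). The eosinophil chemokine Ccl11 had 9 and 146 UMIs, a ratio of 0.740 (0.332 to 1.44).

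Inflammatory cytokines were sparse and their range was wide. Il1b, interleukin-1 beta, was at 46.4 and 11.1 CPM (4.17, 3.04 to 5.65), and its antagonist Il1rn had 20 and 52 UMIs (4.62, 2.61 to 7.87). Tnf had 6 and 20 UMIs. Il6 had 3 and 5 UMIs, and Csf3, which encodes the ligand of Csf3r, had 1 and 6, too few to place. Among genes that NF-kB induces, Tnfaip3, a feedback inhibitor, had a ratio of 3.21 (2.02 to 4.95) and Nfkbia, which holds NF-kB in the cytoplasm, 2.10 (1.68 to 2.61), while Sod2 was at 207.8 and 199.3 CPM (1.04, 0.915 to 1.18).

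Interferon-stimulated genes had a list ratio of 3.01, with 7 of 9 genes at least 2-fold higher. Apart from Slfn4, Irf7, a transcription factor of the type I interferon response, was at 97.5 and 36.8 CPM (2.65), Ifi204, a DNA sensor, at 91.9 and 29.2 CPM (3.14) and Rsad2, viperin, at 30.4 and 10.9 CPM (2.78). Usp18, an interferon feedback inhibitor, was at 7.99 and 7.66 CPM (1.04, 0.487 to 1.99). The letters GAAA, any 2 bases and GAAAC, a form of the interferon-stimulated response element read on both strands, were in the promoter windows of 4 of the 9 list genes with a window, Cxcl10, Ifit1, Ifit3 and Isg15, and in 0.819% of all windows.

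Monocyte and macrophage RNA was also higher in the marker-rich spots. The monocyte/macrophage list was at 4567 CPM there and at 1914 CPM in the other spots, a ratio of 2.39. Of its 13 genes 12 were at least 2-fold higher, among them Apoe, a lipid carrier of macrophages, at 1141 and 419.0 CPM (2.72), Ctss, a lysosomal protease (2.99), and Adgre1, which encodes the antigen F4/80 (2.66). Neutrophil genes outside the score that neither monocyte list holds, from granules, receptors and cytoplasm, had a ratio of 2.28 in sum. By the median gene the order of the 2 lists was the other way, with log2 ratios of 1.52 for these neutrophil genes and 1.24 for the monocyte/macrophage list. Of the 34 neutrophil genes with enough UMIs, 28 were at least 2-fold higher, and their list ratio was 1.92 without the fat-rich spots described below. Inflammatory monocyte genes had a ratio of 2.67, including Ly6c2 (2.50) and Arg1, arginase (3.67). Resident macrophage genes had a ratio of 2.31, with 3 of 6 genes with enough UMIs at least 2-fold higher. Of their 2032 UMIs in the marker-rich spots, 1455 were those of Pf4, which is also in the platelet list below. The part of macrophages in the myeloid ratios above was not tested.

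T cell and NK cell genes were almost absent. The 6 T cell genes had 0 UMIs in the marker-rich spots and 8 in the others, and the 6 NK cell genes had 1 and 19. The B cell list was at 36.0 and 28.8 CPM (1.25, 0.898 to 1.70), and 42 of its 45 UMIs in the marker-rich spots were those of Ighm, the heavy chain of immunoglobulin M. Eosinophil genes had 10 and 43 UMIs and mast cell genes 12 and 55. Of the platelet list, Pf4, platelet factor 4, had 1455 UMIs in the marker-rich spots (2.42, 2.28 to 2.56) beside Ppbp, while the platelet genes Gp9, Treml1 and Gp1bb had 0 and Itga2b had 1. Red cell genes were at 529.1 and 733.8 CPM, a ratio of 0.721.

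Genes of connective tissue, cartilage and bone varied from gene to gene. The MSC list (mesenchymal stem cells, Pdgfra, Prrx1, Ly6a, Ly6e, Cxcl12 and Adam12) had a ratio of 1.64, in which Prrx1 was at 42.4 and 19.5 CPM (2.18, 1.59 to 2.93) and Pdgfra at 19.2 and 17.5 CPM (1.10, 0.689 to 1.67). Cell cycle genes had a ratio of 1.64, with Ccnd1, cyclin D1, at 97.5 and 43.9 CPM (2.22) and Mki67 at 8.79 and 8.19 CPM (1.07, 0.522 to 1.99). The fibroblast matrix list had a ratio of 1.24 with 3 of 10 genes at least 2-fold higher and 1 lower, and lay at 0.981 with TMM scaling. Its collagen gene Col1a1 was at 199.8 and 206.7 CPM (0.967, 0.846 to 1.10). Sox9, the transcription factor of cartilage, was at 64.7 and 23.8 CPM (2.72, 2.11 to 3.47), while Col2a1 and Acan, which cartilage cells make, had 0 and 1 UMIs. Bone genes other than Spp1, an osteopontin gene that macrophages also express (2.82), had 4 or fewer UMIs each in the marker-rich spots. BMP pathway genes had a ratio of 1.36, and Bmp4 itself had 2 and 41 UMIs. TGF-beta pathway genes had a ratio of 2.04, with 3 of 8 genes with enough UMIs at least 2-fold higher and 1 lower. Of the 794 UMIs of that list in the marker-rich spots, 478 were those of Tgfbi (2.35).

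Muscle genes were lower in sum. The adult myofibre list was at 125239 and 182600 CPM, a ratio of 0.686, and 2 of 22 genes with enough UMIs were at least 2-fold lower. The slow myofibre list had a ratio of 0.527, with 6 of 8 genes at least 2-fold lower, and ranged from 0.300 within groups of myofibre share to 0.804 when spots were chosen on a random part of the UMIs. The median spot went the other way for this list, with 433.7 CPM in the marker-rich and 248.9 CPM in the other spots, while the 90th percentiles were 1440 and 4008 CPM. Muscle stress genes went both ways, from Ankrd2 at 0.483 (0.423 to 0.548) to the cell cycle inhibitor Cdkn1a at 2.04 (1.79 to 2.32). The tendon list had a ratio of 0.566, and of 1.09 at 2000 UMIs per spot.

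**Figure D3:**
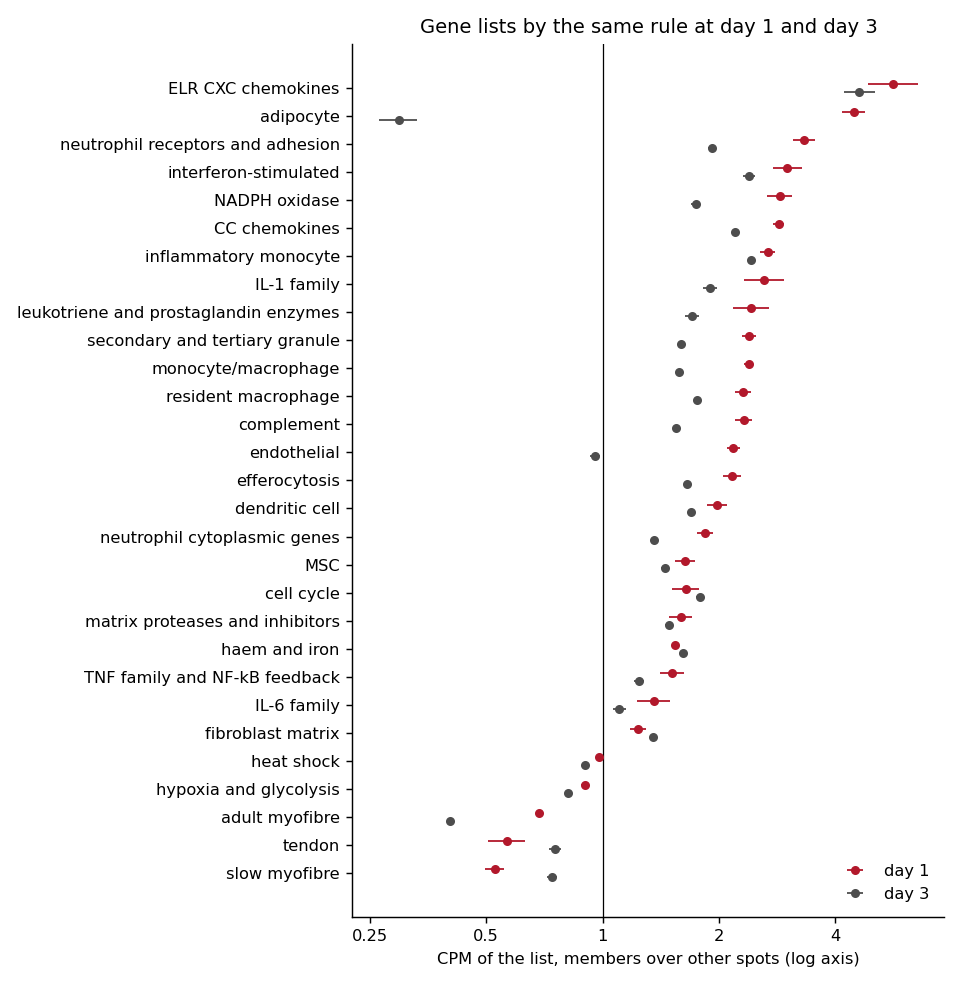
Points are the ratio of a gene list's summed CPM in the marker-rich spots (members) to that in the other spots, on a log axis, with 95% counting intervals, red for day 1 and grey for the same rule applied to day 3. The ELR chemokine list is highest on both days, at 5.63 and 4.62, and the adipocyte list lies on opposite sides of 1, at 4.46 and 0.297.

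The marker-rich spots differed in fat cell RNA and were divided by it. By the CPM of the adipocyte list, 53 of them (24.5%) lay in the top 10% of spots, against 8.41% of the other spots. These 53 had 3736 CPM of adipocyte RNA, 7537 CPM of the monocyte/macrophage list and 48383 CPM of adult myofibre genes. The 163 outside it had 29.8, 3714 and 147315 CPM. Marker RNA was at 1136 and 889.0 CPM in the 2 groups, and ELR chemokine RNA at 293.7 and 189.3 CPM. In the other spots the fat-rich top 10% held 100.8 CPM of marker RNA and the rest 82.9 CPM. Neutrophil genes outside the score were at 6068 CPM in the fat-rich marker-rich spots and 2421 CPM in the 163. Among the other spots they were at 4321 CPM in the fat-rich ones and 1261 CPM in the rest.

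Overlap with the monocyte/macrophage list was wider. In its top 10% lay 81 marker-rich spots (37.5%), against 6.97% of the other spots. Of these 81, 39 were fat-rich too, while 121 of the marker-rich spots lay in neither top 10%. At 2000 UMIs per spot, with spots chosen anew, the ratio of the adipocyte list was 1.40, against 4.46 on all UMIs. When the fat-rich spots were left out of both groups, which by itself lowers the adipocyte list, that list was at 0.972 and Cfd at 0.725. The ELR chemokine list was then at 5.19, CC chemokines at 2.28 and the monocyte/macrophage list at 2.01. The endothelial list was at 2.18 with these spots and 0.853 without them. Most of its UMIs in the marker-rich spots were those of Fabp4 (2459 UMIs), a fatty acid carrier that fat cells also make, and Pecam1 had a ratio of 1.35 (1.10 to 1.64).

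Levels differed along the score on both sides of its bound. The other spots with a score above 0 were divided into 3 groups and the marker-rich spots into 3 groups of 72. The ELR chemokine list was at 30.3 CPM in the spots with a score of 0, at 29.0, 45.8 and 74.7 CPM in the 3 groups of other spots and at 142.0, 199.2 and 311.6 CPM in the marker-rich groups. The monocyte/macrophage list ran from 1627 CPM at a score of 0 to 5667 CPM in the highest group, the MSC list from 616.0 to 1147 CPM and the adult myofibre list from 192907 to 108230 CPM. Median depth was 5748, 4703 and 4269 UMIs in the marker-rich groups, and the part of depth in these levels was not tested.

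**Figure D4:**
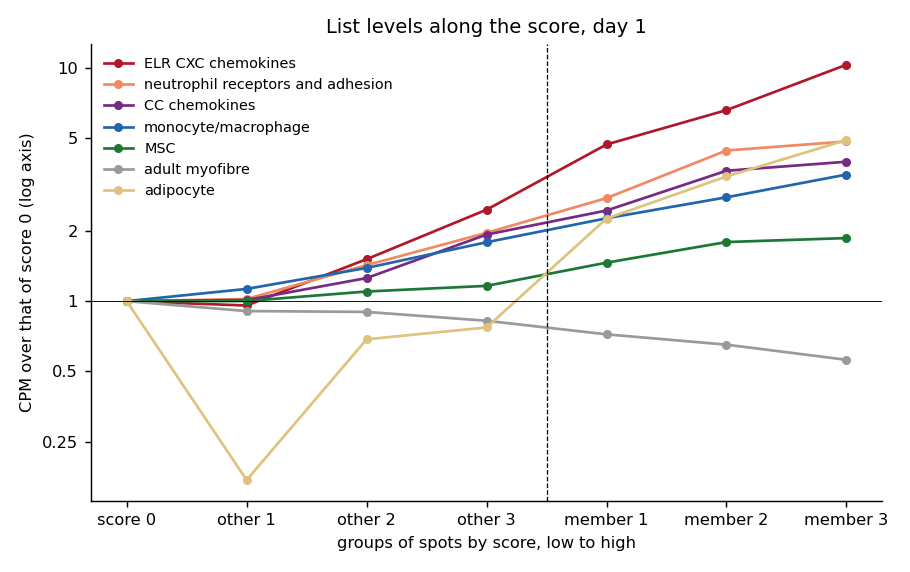
The summed CPM of 7 gene lists, divided by its value in the 1141 spots with a score of 0, is plotted on a log axis against groups of spots in the order of their score, with the bound dashed. The ELR chemokine line reaches 311.6 CPM from 30.3 CPM, the adult myofibre line runs the other way, and the adipocyte line is above 1 only right of the bound.

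Comparison within 5 equal groups by the adult myofibre share placed spots of like muscle content against each other. The ratio of the ELR list was then 3.54, of neutrophil receptors 2.29, of NADPH oxidase genes 2.14, of CC chemokines 1.99 and of the monocyte/macrophage list 1.81. The adult myofibre list itself was at 0.938. Within 5 equal groups by UMI total the ELR list was at 4.07 and the monocyte/macrophage list at 2.08. Of the 1091 genes, 262 were also at least 2-fold higher within the groups of myofibre share.

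The sections were set side by side by the day 1 bound, which fixes the share at day 1 itself. Of spots with 2000 or more UMIs, 1 of 2090 reached it at day 0 (0.0478%), 216 of 2154 at day 1 (10.0%), 14 of 3020 at day 3 (0.464%) and 2 of 2948 at day 7 (0.0678%). Median depths were 21110.5, 7470.5, 16114.5 and 12411 UMIs, and shallow spots reach the bound with fewer marker molecules. With every spot thinned to 2000 UMIs, where a single marker UMI reaches the bound, the shares at days 0, 1, 3 and 7 were 0.280%, 22.3%, 7.84% (6.91% to 8.87%) and 1.29%. At that depth 2 or more marker UMIs were found in 0.00957% of spots at day 0, 6.83% at day 1 (5.80% to 7.97%), 0.836% at day 3 (0.536% to 1.22%) and 0.0373% at day 7. Over whole sections S100a8 was at 0.524, 58.8, 15.6 and 1.53 CPM, and Csf3r at 0.342, 34.6, 20.5 and 5.40 CPM. Animal, section and day cannot be told apart.

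**Figure D5:**
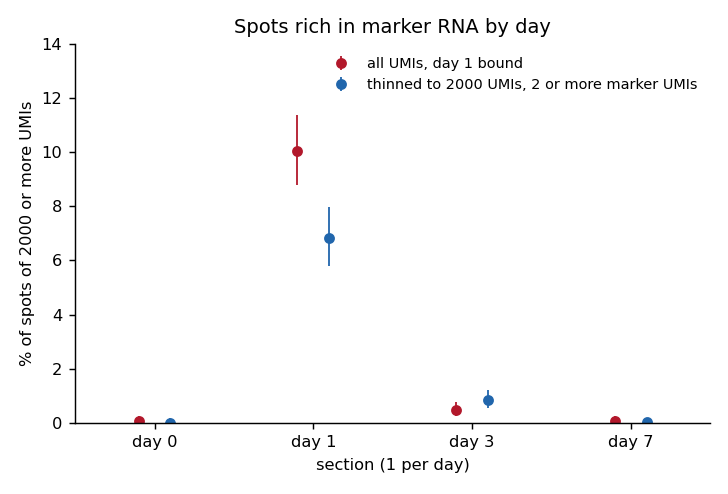
The percentage of spots with 2000 or more UMIs is shown for each day's section, in red for spots at or above the day 1 bound and in blue for spots with 2 or more marker UMIs after thinning to 2000 UMIs, with exact 95% intervals for counting error. Day 1 stands at 10.0%, which the bound fixes, and 6.83%, and the other days are below 1% on these measures, while 7.84% of day 3 spots had at least 1 marker UMI after thinning.

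At day 3 the same rule, applied within that section, took 302 spots with a bound of 134.1 CPM and 246.5 CPM of marker RNA. At days 0 and 7 the 90th percentile of the score was 0, so the rule could not be applied there. In the day 3 spots the ELR list had a ratio of 4.62 (4.21 to 5.06), with Cxcl5 at 91.2 and 18.2 CPM (5.02, 4.51 to 5.59), while Ppbp had 8 UMIs (2.13, 0.846 to 4.74). Slfn4 had a ratio of 3.29 and Mmp9 of 2.79. The monocyte/macrophage list was at 22053 and 14022 CPM, a ratio of 1.57, beside a median gene of 1.26. The adipocyte list had a ratio of 0.297 and the adult myofibre list 0.403, against 4.46 and 0.686 at day 1. NK cell genes had a ratio of 2.83 (2.38 to 3.36) at day 3, where at day 1 the marker-rich spots had 1 UMI of them.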

How the data were processed

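RNA was measured on 10x Genomics Visium sections of fresh frozen muscle, 1 section per day, grouped by the labels. The deposited values are raw UMI counts per gene and spot (32285 features), which the authors made with Space Ranger (1.2.0 in the file headers, another version in the methods, mm10 in the labels), and spots lie over tissue as the authors called it. Spot positions were not used.

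Here the counts of all spots in a group were added up and divided by the group's total. Ratios and shares have exact (Clopper-Pearson based) 95% intervals. The calculation was tested on simulated data. Genes needed 100 UMIs over both groups. Named genes were the 15 highest and 10 lowest ratios among genes of 50 CPM or more, without mitochondrial genes and those of the score, and from each list up to 5 by UMIs in the marker-rich spots with any past 2-fold, of which some are printed and 2 are not reported here. Genes with too few UMIs were named after their values were seen. Members and 50 gene lists were chosen with earlier results of these data known. Groups along the score replaced 10 planned equal groups, because most spots scored 0. This, the requirement of 3 marker UMIs, comparison within groups of UMI total and removal of fat-rich spots were chosen after seeing the data. Alternatives also covered depth, percentile, score, totals and gene minimum. edgeR 4.0.16 and DESeq2 1.42.0 (R 4.3.3) gave scaling factors only. All else ran in Python 3.11.15. Doublets were not called, since spots are not single cells.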

Additional observations from a re-analysis of the deposited data

Results flagged for a closer look

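By the same rule, 3 lists lay on opposite sides of 1 at day 1 and day 3, each interval excluding 1, and the difference between the days was not tested. The adipocyte list had a day 1 ratio of 4.46 (4.15 to 4.78) and a day 3 ratio of 0.297 (0.265 to 0.332). For the endothelial list the ratios were 2.18 (2.10 to 2.27) and then 0.955 (0.927 to 0.985). For the chondrogenic list they were 1.96 (1.55 to 2.45) and then 0.745 (0.652 to 0.848), and 81 of its UMIs in the day 1 marker-rich spots were those of Sox9.

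Marker RNA was also present in the 513 day 1 spots under 2000 UMIs, which the comparisons left out. They held 202 marker UMIs, or 393.7 CPM (341.3 to 451.9). The other spots of 2000 or more UMIs were at 83.9 CPM, the marker-rich spots at 944.0 CPM and the whole day 1 section at 157.5 CPM. The whole day 0 section was at 1.46 CPM (1.12 to 1.86).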

How the results depend on the processing

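The values as reported were 1091 genes at least 2-fold higher and 164 at least 2-fold lower, a monocyte/macrophage ratio of 2.39 and a ratio of 2.28 for neutrophil genes outside the score. Of the 43 lists whose interval lay above or below 1, 9 crossed a ratio of 1 under some alternative, and of 25 named genes 1 did. Of the 15 named higher genes, 10 had a ratio of 2 or more under every setting tried. Higher genes numbered 704 with spots of 4000 or more UMIs, 606 at the 80th percentile, 700 with S100a8 and S100a9 alone as the score, 565 on a reduced total that left out myofibre, haemoglobin and mitochondrial genes, 418 with edgeR TMM factors, 421 with DESeq2 size factors, 263 within 5 groups of myofibre share, 529 within 5 groups of UMI total and 569 without fat-rich spots. At 2000 UMIs per spot they numbered 125, of which 117 were among the 1091, and tied scores then took 515 spots. With a minimum of 20, 500 or no UMIs per gene the number was 1925, 244 and 7022. Lower genes numbered 257 with spots of 1000 or more UMIs, 103 with 4000, 69 at the 80th and 352 at the 95th percentile, 14 when thinned, 304 on the reduced total, 298 when chosen on a random part of the UMIs, 413 with TMM, 412 with DESeq2, and 540 and 46 with a minimum of 20 and 500 UMIs. TMM and DESeq2 moved all log2 ratios by -0.34 and -0.33, which put the median gene near 0. The monocyte/macrophage ratio was 2.62 with spots of 1000 UMIs, 2.19 with 4000, 2.06 at the 80th and 2.63 at the 95th percentile, 1.83 when thinned, 2.02 on the reduced total, 1.81 within groups of myofibre share, 1.89 with TMM, 1.90 with DESeq2, 2.18 on the S100a8 and S100a9 score, 2.08 within groups of UMI total and 2.01 without fat-rich spots. Neutrophil genes outside the score gave, in that order, 2.48, 2.11, 1.86, 2.46, 1.54, 1.93, 1.70, 1.80, 1.81, 2.005, 1.82 and 1.92, and 2.16 when chosen on a random part of the UMIs, 2.15 on the score of Csf3r, Cxcr2 and Retnlg and 2.10 with equal weight per spot. The heat shock list, at 0.980, was 1.07 with 4000 UMIs, 1.10 at the 80th percentile, 1.08 when thinned, 1.06 when chosen on part of the UMIs, 1.01 on the S100a8 and S100a9 score, 1.04 within groups of UMI total and 1.11 without fat-rich spots. The stressed myofibre list, also at 0.980, gave 1.09, 1.11, 1.05, 1.03, 1.02, 1.04 and 1.11 under the same settings. The red cell list was 1.07 with 4000 UMIs and 1.18 on the S100a8 and S100a9 score, the tendon list 1.09 when thinned and the hypoxia and glycolysis list 1.03 within groups of myofibre share. The fibroblast matrix list, at 1.24, was 0.956 within those groups, 0.981 with TMM and 0.983 with DESeq2. Without fat-rich spots the mast cell list was 0.366, the endothelial list 0.853, the adipocyte list 0.972 and Cfd 0.725. The cause of these shifts was not tested. Precision was limited by a median of 4 marker UMIs in a marker-rich spot, and 1 section per day gives no measure of spread between animals. No paired analysis was possible because each group had 1 section.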
